A study of Mus musculus with 11 samples.

Results

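The 10 genes described here are core members of the Notch pathway, taken by symbol from the 24969 gene names of the bulk table and from the single-cell matrices: the receptors Notch1, Notch2, Notch3 and Notch4, the ligands Jag1, Jag2, Dll1 and Dll4, and the target genes Hes1 and Hey1. All 10 were found in both kinds of data, and all 10 passed the filter on low counts. They were measured in mesenchyme of the mouse small intestine after the muscle and the epithelium had been removed. The bulk data are 8 libraries from 4 sorted populations, 2 libraries each, made from 5 to 10 ng of RNA. PDGFRAlo stromal cells (GFP-low) and telocytes (GFP-high, the subepithelial cells with most PDGFRA) came from transgenic PDGFRAH2BEGFP mice, in which the Pdgfra locus drives a nuclear green fluorescent protein. Blood endothelium (CD31 positive, LYVE1 negative) and lymphatic endothelium (CD31 and LYVE1 positive) came from C57BL/6 mice, so that mouse strain and cell population cannot be told apart between the PDGFRA populations and the endothelia. The single-cell data are 1 library of sorted GFP cells, mixed at 2 parts GFP-low to 1 part GFP-high, and 2 libraries of whole mesenchyme. Ages, sexes and the number of animals per library were not given, so p-values reflect how far libraries of 1 group differ, and that spread may be technical.

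Notch signalling passes between touching cells. A ligand of the Jagged or Delta-like family on one cell binds a receptor on its neighbour, the receptor is cut by ADAM proteases and by gamma-secretase, and its freed intracellular part joins the DNA-binding protein RBPJ to turn on genes such as Hes1 and Hey1, which code for transcriptional repressors. In blood vessels Dll4, Jag1, Notch1 and Notch4 are known for their parts in sprouting and in the identity of arteries, and Notch3 is the receptor of pericytes and vascular smooth muscle. Delta-like ligands and Notch1 also act in the intestinal epithelium, where they keep stem cells and hold back secretory fates.

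Notch4, Dll4 and Jag2 had their highest mean bulk level in blood endothelium, and were near 0 in fibroblast-like single cells described below. Dll1 had its highest mean in PDGFRAlo cells, without a detectable difference from blood endothelium (edgeR adjusted p = 0.205). These genes are shown first by the sequence around their start of transcription. The stretches run from 250 bases before to 50 after the start in RefSeq annotation on GRCm38.p6, on the gene's strand. Capitals mark AGGAAG, the core that ETS factors (the family of ERG) bind, or its reverse complement CTTCCT. Notch4 lies at chr17:34564045-34564344 on the plus strand, Dll4 at chr2:119325534-119325833 on the plus strand, Jag2 at chr12:112929446-112929745 on the minus strand and Dll1 at chr17:15375774-15376073 on the minus strand.
Notch4: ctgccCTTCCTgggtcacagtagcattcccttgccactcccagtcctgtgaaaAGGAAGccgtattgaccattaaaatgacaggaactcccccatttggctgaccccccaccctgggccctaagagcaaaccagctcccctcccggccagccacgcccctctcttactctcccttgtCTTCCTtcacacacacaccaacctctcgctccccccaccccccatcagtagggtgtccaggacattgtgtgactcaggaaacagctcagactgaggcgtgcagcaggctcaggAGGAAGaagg
Dll4: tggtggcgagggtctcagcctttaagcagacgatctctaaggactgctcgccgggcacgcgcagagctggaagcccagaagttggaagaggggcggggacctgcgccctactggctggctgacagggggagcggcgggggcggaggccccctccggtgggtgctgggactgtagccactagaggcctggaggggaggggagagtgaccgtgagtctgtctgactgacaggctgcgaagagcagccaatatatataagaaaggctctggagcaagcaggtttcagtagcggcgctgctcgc
Jag2: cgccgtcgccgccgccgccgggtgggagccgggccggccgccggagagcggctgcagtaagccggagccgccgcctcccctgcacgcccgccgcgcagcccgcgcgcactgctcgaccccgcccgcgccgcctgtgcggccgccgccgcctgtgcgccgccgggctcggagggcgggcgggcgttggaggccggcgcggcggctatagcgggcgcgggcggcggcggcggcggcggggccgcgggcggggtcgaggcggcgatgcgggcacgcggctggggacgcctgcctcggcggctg
Dll1: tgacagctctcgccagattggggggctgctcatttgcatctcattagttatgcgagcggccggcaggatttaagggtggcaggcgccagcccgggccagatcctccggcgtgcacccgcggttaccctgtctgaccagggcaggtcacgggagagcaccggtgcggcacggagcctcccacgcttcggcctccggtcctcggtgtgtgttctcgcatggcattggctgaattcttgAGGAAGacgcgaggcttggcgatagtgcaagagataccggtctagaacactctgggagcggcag

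The Notch4 stretch held 4 matches of the ETS core and the Dll1 stretch 1, while those of Dll4 and Jag2 held 0. Over all 32851 mouse promoters of this length, 35.4% held the core on either strand. The printed Dll1 stretch lies inside the annotated gene (chr17:15367354-15376872). A second Dll1 stretch, at chr17:15376883-15377182 just outside the gene's start, had 0 matches. The promoters of Notch1, Notch2, Notch3 and Jag1 had 0 matches as well. TGGGAA, the core that RBPJ binds, was in none of the 9 promoters found for 8 of the 10 genes, and in 25.6% of all promoters. The promoters of Hes1 and Hey1 are not shown. These are matches of letters and say nothing about whether a factor binds.

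Before the members, the labelled populations were set against marker genes. The libraries held between 8549348 and 55382442 counts. The summed level of 12 fibroblast markers was 76079 and 90688 CPM (counts scaled to a common library size, with TMM factors) in PDGFRAlo libraries and 24485 and 18077 CPM in telocyte libraries. Telocyte markers summed to 536 and 486 CPM in PDGFRAlo libraries, against 6775 and 7883 CPM in telocyte libraries. The 14 blood endothelial markers summed to 3621 and 1259 CPM in PDGFRAlo libraries and to 82.3 and 54.2 CPM in telocyte libraries, beside 19519 and 20338 CPM in blood endothelium and 2894 and 3457 CPM in lymphatic endothelium. All 14 of them, Pecam1, Cdh5 and Kdr included, were higher in PDGFRAlo than in telocyte libraries. Lymphatic endothelium also held markers of plasma cells, at 67072 CPM or more in each library against at most 5165 CPM in blood endothelium. In bulk libraries, fewer cells of a type and less RNA per cell cannot be told apart.

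In bulk, 5 of the 10 Notch genes were higher in PDGFRAlo stromal cells than in telocytes. The receptors Notch1 and Notch4, the ligands Jag2 and Dll4 and the target Hey1 passed the test in that direction, and 0 of 10 passed in the other. The background was 12.1% of all 14893 genes tested called higher and 2.77% called lower. The median log2 fold was 2.81 over the 10 members and 0.03 over all genes. Tests were edgeR's quasi-likelihood test with Benjamini-Hochberg adjustment over all genes, at a threshold of 0.05, and log2 folds are given with their standard errors. Markers of other cells were also higher in PDGFRAlo than in telocyte libraries: 14 of 14 of blood endothelium (median log2 fold 5.25), 4 of 6 tested of lymphatic endothelium (4.72), 7 of 10 of epithelium (4.06), 7 of 9 of macrophages or dendritic cells (3.96) and 4 of 5 of B cells (3.95). Summed, the epithelial markers were at 62.9 and 284 CPM in PDGFRAlo libraries against 8.55 and 8.05 CPM in telocyte libraries, and those of macrophages or dendritic cells, which held most Jag2 UMIs of whole mesenchyme, at 1215 and 815 CPM against 1145 and 878 CPM. Their part in the result was not tested.

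**Figure D1:**
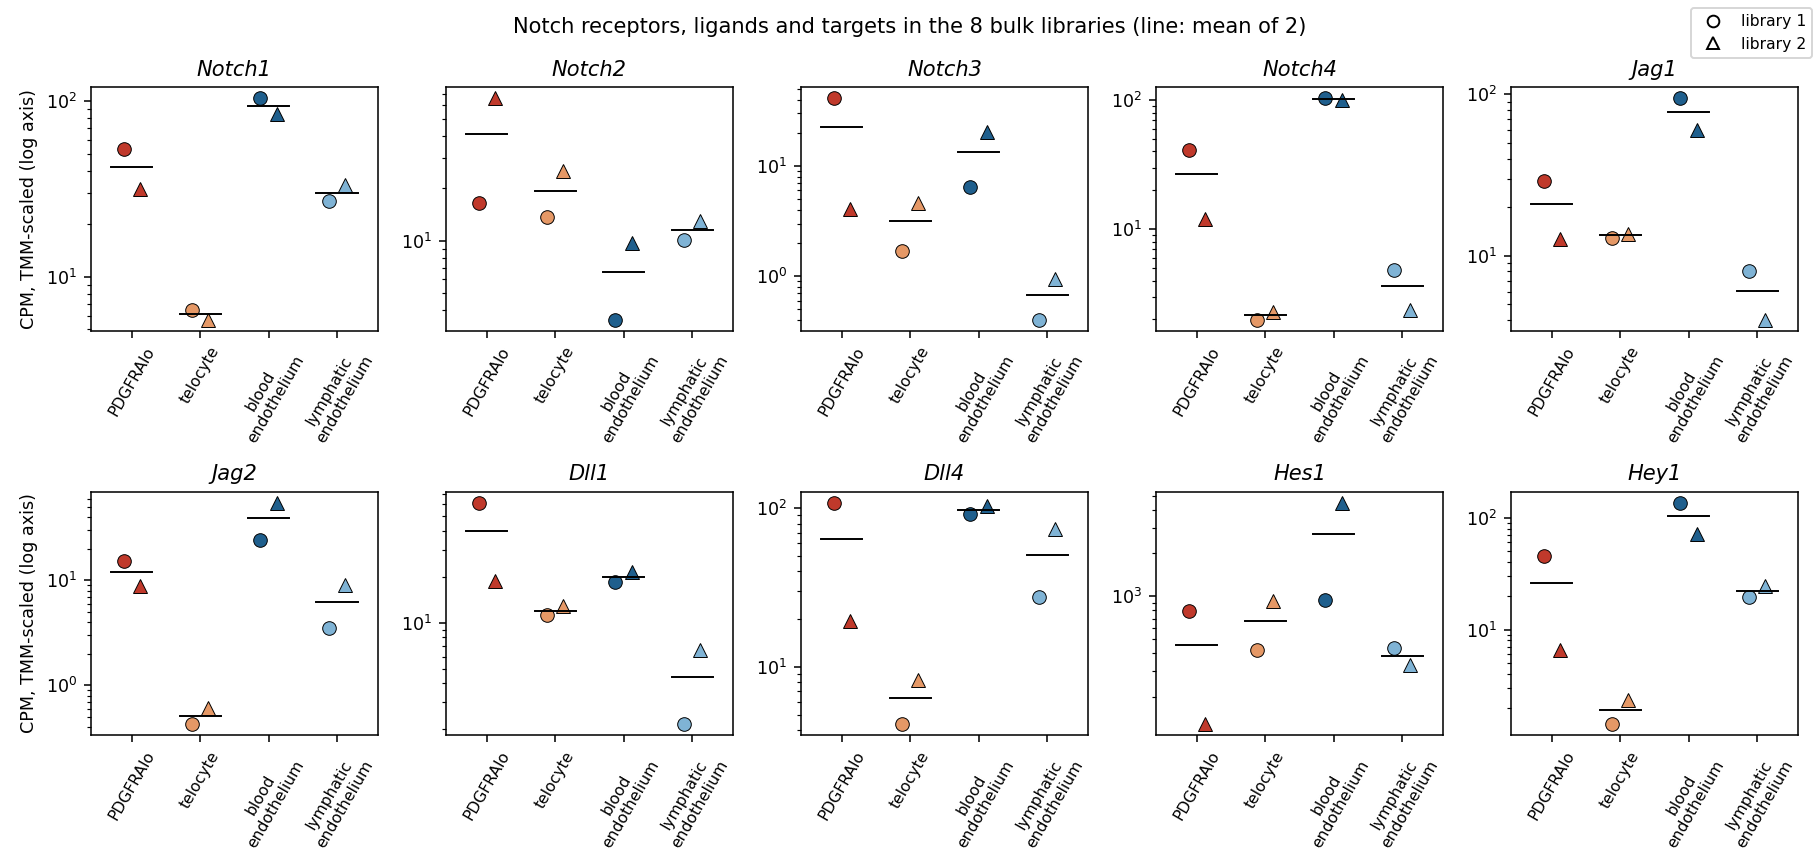
Bulk level of the 10 Notch genes in each library, as CPM on a log axis, with PDGFRAlo stromal cells left of telocytes and blood endothelium left of lymphatic endothelium, 1 point per library and a line at the mean of 2. Notch1, Notch4, Jag2, Dll4 and Hey1 lie higher in both PDGFRAlo libraries than in both telocyte libraries, and Notch1, Notch4, Jag1, Jag2 and Hey1 lie higher in both blood endothelial libraries than in all other libraries.

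Among the receptors, Notch1 had 53.1 and 31.5 CPM in PDGFRAlo libraries, 6.49 and 5.69 CPM in telocyte libraries, 104 and 84.0 CPM in blood endothelium and 26.9 and 33.2 CPM in lymphatic endothelium. The PDGFRAlo values lay above both telocyte values and below both blood endothelial values. The log2 fold of PDGFRAlo over telocyte was 2.79 ± 0.36 (edgeR adjusted p = 0.0011). Notch4, a receptor known chiefly from endothelium, had 41.0 and 12.1 CPM in PDGFRAlo libraries, 2.00 and 2.30 CPM in telocyte libraries, 103 and 100.2 CPM in blood endothelium and 4.86 and 2.35 CPM in lymphatic endothelium. Its groups did not overlap between PDGFRAlo and telocyte libraries (log2 fold 3.62 ± 0.61, edgeR adjusted p = 0.0038). The first PDGFRAlo library had more Notch4 than the second, and also more of the summed endothelial markers.

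Notch3, the mural cell receptor, varied most between the PDGFRAlo libraries, at 41.1 and 4.11 CPM, against 1.71 and 4.6 CPM in telocyte libraries. The groups overlapped, and the difference did not pass the test (2.83 ± 1.03, edgeR adjusted p = 0.109). The pericyte markers, 7 genes such as Rgs5 and Kcnj8, summed to 1527 and 627 CPM in PDGFRAlo libraries and 2260 and 2287 CPM in telocyte libraries. Of these 7, 1 was called higher and 3 lower in PDGFRAlo than in telocyte libraries. Kcnj8 and Abcc9 of this list were among the 10 leading genes of a cluster with telocyte markers (769 cells) in the sorted single-cell library. The sum therefore does not measure pericytes alone, and the part of mural cells in the Notch3 levels was not tested. Notch2, a widely expressed receptor, had 16.4 and 65.8 CPM in PDGFRAlo libraries, 13.8 and 25 CPM in telocyte libraries, 3.52 and 9.64 CPM in blood endothelium and 10.1 and 13 CPM in lymphatic endothelium. It was the 1 receptor with its lowest mean in blood endothelium. Its PDGFRAlo values overlapped those of telocytes (edgeR adjusted p = 0.39).

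Of the ligands, Jag2 had 15.3 and 8.83 CPM in PDGFRAlo libraries and 0.428 and 0.605 CPM in telocyte libraries, with 24.3 and 54.8 CPM in blood endothelium and 3.51 and 9.01 CPM in lymphatic endothelium. Its log2 fold of PDGFRAlo over telocyte was 4.51 ± 0.69 (edgeR adjusted p = 0.0024), the largest of the 10 members. Dll4, the ligand of sprouting tip cells, had 108 and 19.5 CPM in PDGFRAlo libraries, 4.35 and 8.29 CPM in telocyte libraries, 91.5 and 103 CPM in blood endothelium and 27.7 and 74.3 CPM in lymphatic endothelium. The log2 fold of PDGFRAlo over telocyte was 3.33 ± 0.79 (edgeR adjusted p = 0.0206). That call was lost without the first PDGFRAlo library (log2 fold 1.59, adjusted p = 0.148), and also without the first (2.95, adjusted p = 0.122) or the second telocyte library (3.87, adjusted p = 0.0653).

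Dll1 and Jag1 did not pass the test between PDGFRAlo and telocyte libraries. Dll1, a Delta-like ligand, had 61.0 and 18.7 CPM in PDGFRAlo libraries, 11.2 and 12.8 CPM in telocyte libraries, 18.4 and 21.5 CPM in blood endothelium and 2.16 and 6.66 CPM in lymphatic endothelium. Its PDGFRAlo and telocyte values did not overlap (1.73 ± 0.61, edgeR adjusted p = 0.0993), and without the second PDGFRAlo library the log2 fold was 2.34 (adjusted p = 0.0284). Up to 20.5% of the annotated exon bases of Dll1 are shared with A930024N18Rik on the opposite strand, and the strand setting of the counting was not given, so that reads of the 2 genes cannot be told apart there. Jag1 had 29.1 and 12.7 CPM in PDGFRAlo libraries, 13 and 13.7 CPM in telocyte libraries, 94.3 and 60.3 CPM in blood endothelium and 8.10 and 4.03 CPM in lymphatic endothelium. Blood endothelium stood apart from the other groups in both libraries.

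The targets differed from each other. Hey1, whose product acts in arteries and the heart, had 45.8 and 6.61 CPM in PDGFRAlo libraries, 1.43 and 2.36 CPM in telocyte libraries, 136 and 71.3 CPM in blood endothelium and 19.4 and 24.4 CPM in lymphatic endothelium. It was higher in PDGFRAlo than in telocyte libraries (3.78 ± 0.83, edgeR adjusted p = 0.0142), and the call was lost without the first PDGFRAlo library (1.77, adjusted p = 0.0543) and without the first (adjusted p = 0.0829) or the second telocyte library (adjusted p = 0.0592). Hes1 had 784 and 128 CPM in PDGFRAlo libraries, 422 and 927 CPM in telocyte libraries, 941 and 4481 CPM in blood endothelium and 435 and 329 CPM in lymphatic endothelium. Its libraries spread widely within PDGFRAlo, telocyte and blood endothelial groups, the first 2 groups overlapped, and no difference between PDGFRAlo and telocyte libraries was detectable (−0.56, edgeR adjusted p = 0.784).

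Per length of exon, Hes1 was the most abundant member in each of the 4 populations, at a mean of 224 CPM per kilobase of exon (RPKM) in PDGFRAlo libraries, 331 RPKM in telocyte libraries, 1331 RPKM in blood endothelium and 188 RPKM in lymphatic endothelium. Among the ligands Dll4 led in PDGFRAlo libraries (16.5 RPKM), blood endothelium (25.2 RPKM) and lymphatic endothelium (13.2 RPKM), and Dll1 led in telocyte libraries (2.84 RPKM). Among the receptors Notch2 led in PDGFRAlo (3.81 RPKM) and telocyte libraries (1.80 RPKM), Notch4 in blood endothelium (12.6 RPKM) and Notch1 in lymphatic endothelium (2.11 RPKM). These are orders of means over 2 libraries.

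In blood endothelium 6 of 10 members were higher than in lymphatic endothelium and 0 lower, beside 14.7% and 8.32% of all genes. The receptors Notch1 (log2 fold 1.64), Notch3 (4.21) and Notch4 (4.86) and the ligands Jag1 (3.70), Jag2 (2.63) and Dll1 (2.14) passed the edgeR test. Pericyte markers were also higher in blood endothelium in 5 of 7 (median 3.32) and smooth muscle markers in 3 of 7 (2.03), with sums of 118 and 239 CPM for pericytes and 205 and 487 CPM for smooth muscle in blood endothelium, against 180 and 244 CPM and 139 and 105 CPM in lymphatic endothelium, and their part in the Notch3 and Jag1 results was not tested. Notch2 had the opposite sign and did not pass (−0.83, edgeR adjusted p = 0.406). Dll4 was present in both endothelia, with 91.5 and 103 CPM in blood endothelium and 27.7 and 74.3 CPM in lymphatic endothelium (0.93, edgeR adjusted p = 0.379). Hes1 (2.83, adjusted p = 0.0576) and Hey1 (2.24, adjusted p = 0.0583) missed the threshold of the edgeR test. The Dll1 call was lost whichever endothelial library was left out, with log2 folds from 1.58 to 3.22. Those of Notch1, Notch3 and Jag2 were lost in some of these fits, and those of Notch4 and Jag1 were kept. In single cells, described below, Notch1 did not differ detectably between the endothelial classes. The median log2 fold was 2.43 over members and 0.12 over all genes. The 14 blood endothelial markers shifted as far, with 10 higher, 0 lower and a median of 2.48. Lymphatic endothelium libraries held 172120 and 67072 CPM of plasma cell markers and 14292 and 16732 CPM of macrophage or dendritic markers. Their lymphatic markers summed to 3967 and 7567 CPM. How far these cells lowered the members' levels there was not tested.

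Set against blood endothelium, PDGFRAlo libraries were higher in Notch2 (log2 fold 2.65) and lower in Notch1 (−1.15), Notch4 (−1.94), Jag1 (−1.89) and Jag2 (−1.72) by the edgeR test. These are 1 of 10 higher and 4 of 10 lower, beside 21.2% and 21.3% of all genes, and without the second PDGFRAlo library 0 passed in either direction. Without the first blood library 0 passed higher and 2 lower, and without either telocyte library, which share the estimate of the spread, 2 passed lower. Against lymphatic endothelium, PDGFRAlo libraries were higher in Notch3 (4.96), Notch4 (2.91), Jag1 (1.80) and Dll1 (3.13), which is 4 of 10 beside a background of 24.1%, and lower in 0, beside 20.2%. Without the second lymphatic library 2 were called higher, and without the first PDGFRAlo library 1 was called lower. Telocyte libraries were lower than blood endothelium in 6 of 10 (29.6% of all genes were) and higher in 0 (22.6% were), with log2 folds between −2.53 for Jag1 and −6.23 for Jag2. They were lower than lymphatic endothelium in Notch1, Jag2, Dll4 and Hey1 (4 of 10, against 27.0% of all genes), and higher in 0 (24.0% were). The comparisons share libraries and are not independent of each other.

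Since endothelial markers were present in the PDGFRAlo libraries, each gene's level there was expressed as a percentage of its mean level in blood endothelium. The 14 endothelial markers had a median of 20.5% (5.28% to 49.8%) in the first PDGFRAlo library and 4.76% (1.61% to 24.0%) in the second, and medians of 0.330% and 0.274% in the telocyte libraries. Notch4 (40.3% and 11.9%), Jag1 (37.7% and 16.4%), Jag2 (38.6% and 22.3%), Hes1 (28.9% and 4.74%) and Hey1 (44.3% and 6.39%) lay inside the range of the markers in both PDGFRAlo libraries. Notch1 (56.6% and 33.5%), Notch2 (249% and 999%), Notch3 (308% and 30.8%) and Dll1 (306% and 93.6%) lay above it in both. Dll4 lay above it in the first library (111%) and inside it in the second (20.0%). The upper end in the second library is Tek alone, with Tie1 next at 17.1%, so that Jag2 and Dll4 lay above 13 of the 14 markers there. Notch4, Jag1, Jag2 and Hey1 were above the marker median in both libraries, and Hes1 was above it in the first and just under it in the second. In the telocyte libraries the markers reached at most 0.958% and 0.776%, and all 10 members lay above that, the lowest being Jag2 at 1.08% and Hey1 at 1.38% in the first library. What part of the PDGFRAlo bulk levels was endothelial RNA was not tested.

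**Figure D2:**
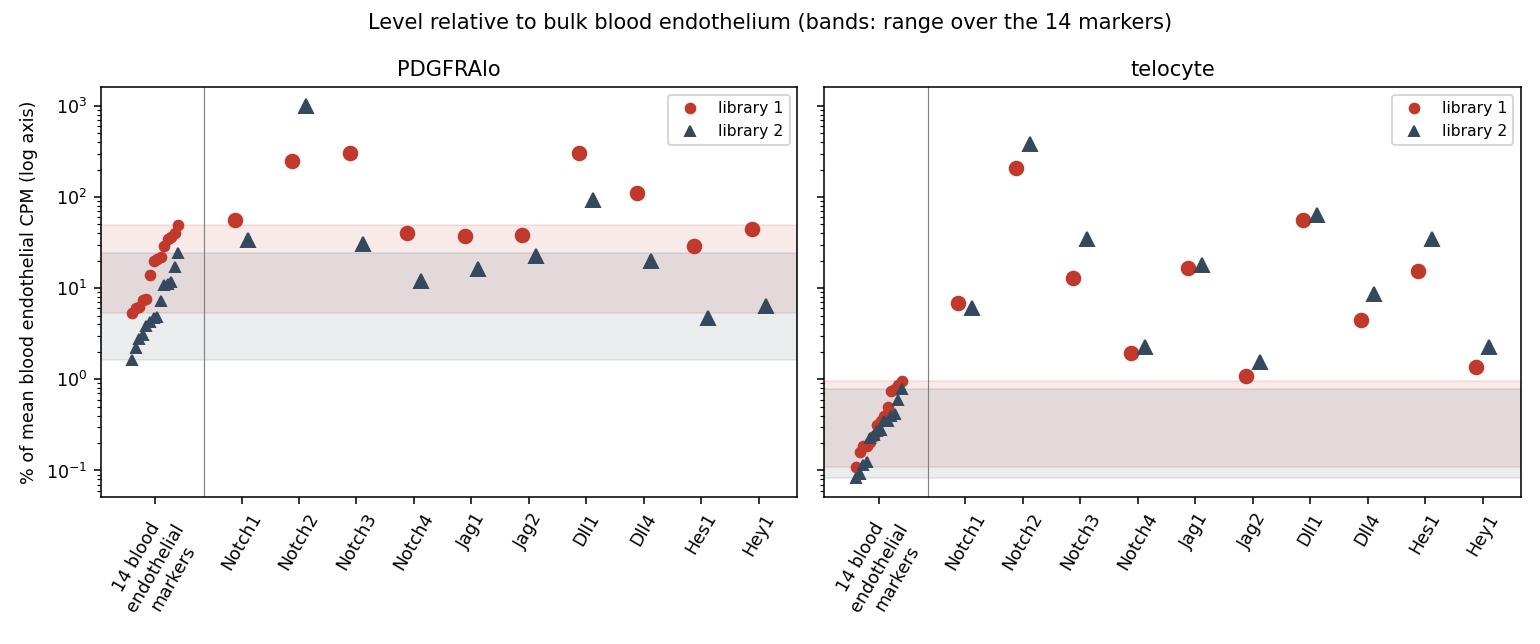
Level of each gene in the PDGFRAlo and telocyte libraries as a percentage of its mean level in the 2 blood endothelial libraries, on a log axis, for the 10 Notch genes and the 14 endothelial markers, with 1 point per library and bands for the markers' range. The markers' medians are 20.5% and 4.76% in PDGFRAlo libraries and 0.330% and 0.274% in telocyte libraries, and Notch1, Notch2, Notch3 and Dll1 lie above all 14 markers in both PDGFRAlo libraries.

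The single-cell libraries show which cells hold each transcript. After filters, 3853 sorted cells and 6142 and 5943 whole-mesenchyme cells remained, with a median of 4837, 5218 and 5181 unique molecular identifiers (UMIs). Cells were clustered with the Notch pathway genes left out, so that their levels were not used to form the clusters, and clusters were called by the marker lists that led them. In whole mesenchyme 11 classes were named, among them 1162 and 1072 fibroblast-like, 123 and 119 telocyte-like, 158 and 162 blood endothelial-like, 86 and 81 lymphatic endothelial-like and 30 and 39 pericyte-like cells. The whole-mesenchyme libraries differed by little more than sampling noise (a median chi-square per gene of 0.527 to 0.735 within classes, where 0.455 is the value for identical sources), so that tests over the 2 libraries may understate the spread between animals. They shared 7 cell barcodes with each other, and 1 barcode with the sorted library.

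In whole mesenchyme, 7 of the 10 members were lower in fibroblast-like than in blood endothelial-like cells, beside 25.3% of the 11927 genes tested, and Dll1 was the ligand with most of its UMIs in fibroblast-like cells. Blood endothelial-like cells held 76.8% and 78.5% of all Notch4 UMIs and 51.5% and 54.7% of all Dll4 UMIs, while being 2.57% and 2.73% of the cells. Fibroblast-like cells held 62.7% and 54.5% of all Dll1 UMIs, and were 18.9% and 18.0% of the cells. Smooth muscle-like cells held 68.6% and 64.4% of all Notch3 UMIs.

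**Figure D3:**
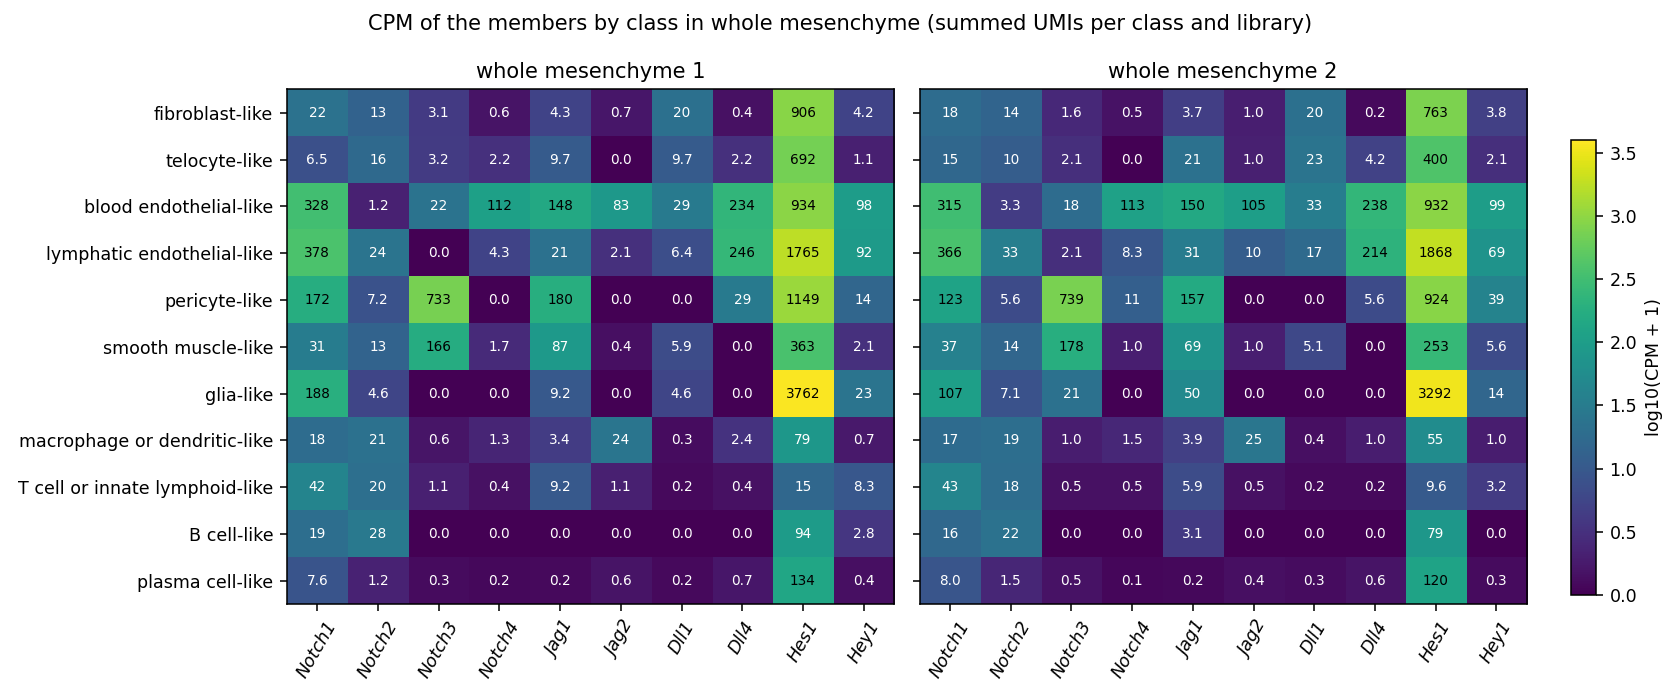
Heat map of the 10 Notch genes (columns) in the 11 named classes (down the page) of the 2 whole-mesenchyme libraries, with CPM of summed UMIs printed in each field and colour on a log10(CPM + 1) scale. Notch4 and Dll4 are at 112 to 238 CPM in blood endothelial-like cells and below 1 CPM in fibroblast-like cells, and Notch3 is at 733 and 739 CPM in pericyte-like cells.

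Notch1 had 22.0 and 17.9 CPM of summed UMIs in fibroblast-like cells, 6.48 and 14.7 CPM in telocyte-like cells, 328 and 315 CPM in blood endothelial-like cells and 378 and 366 CPM in lymphatic endothelial-like cells. It was higher in fibroblast-like than in telocyte-like cells (log2 fold 1.08 ± 0.32, edgeR adjusted p = 0.0103; 1.80 and 0.46 in the first and the second library alone, with no test) and did not differ detectably between the endothelial classes (−0.02, adjusted p = 0.942). Notch2 had 12.6 and 13.6 CPM in fibroblast-like cells, 16.2 and 10.5 CPM in telocyte-like cells, 1.17 and 3.31 CPM in blood endothelial-like cells and 23.5 and 33.3 CPM in lymphatic endothelial-like cells. Blood endothelial-like cells were the low group, as in bulk.

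Notch3 was the receptor of mural cells, at 733 and 739 CPM in pericyte-like cells against 3.11 and 1.61 CPM in fibroblast-like cells (log2 fold 8.04 ± 0.23, edgeR adjusted p = 3.68e-24). Among smooth muscle-like cells it was at 729 and 822 CPM in the cluster led by Pln, Mustn1 and Nrip2 and at 1.09 and 0 CPM in the cluster led by Hhip, Actg2 and Cnn1. Jag1 had 221 and 177 CPM in the Pln-led cluster, against 46.9 and 39.5 CPM in the Hhip-led cluster. Notch3 was high in one smooth muscle-like cluster and near 0 in the other in both libraries, and no test was run between clusters.

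Notch4, Dll4 and Jag2 were near 0 in fibroblast-like cells. Notch4 had 0.556 and 0.495 CPM there (5 and 4 UMIs), against 112 and 113 CPM in blood endothelial-like cells, and Dll4 had 0.444 and 0.247 CPM (4 and 2 UMIs) against 234 and 238 CPM. Jag2 had 0.667 and 0.989 CPM in fibroblast-like cells (6 and 8 UMIs) against 82.8 and 105 CPM in blood endothelial-like cells. The log2 folds of fibroblast-like over blood endothelial-like cells were −7.58 ± 0.30, −9.19 ± 0.23 and −6.72 ± 0.29 for Notch4, Dll4 and Jag2 (edgeR adjusted p between 1.23e-26 and 5.25e-20). Between fibroblast-like and telocyte-like cells, Dll4 was lower in fibroblast-like cells (−2.87 ± 0.91, edgeR adjusted p = 0.0162), with −1.20 in the first library alone. That call rests on 2 and 4 Dll4 UMIs in telocyte-like cells. Notch4 (adjusted p = 0.705) and Jag2 (adjusted p = 0.757) did not pass the test at 0 to 2 UMIs per telocyte-like class.

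Dll1 had 20.0 and 20.4 CPM in fibroblast-like cells, 9.72 and 23.1 CPM in telocyte-like cells, 29.2 and 33.1 CPM in blood endothelial-like cells and 6.41 and 16.6 CPM in lymphatic endothelial-like cells. The fibroblast-like level lay within the telocyte-like values (adjusted p = 0.266) and below the blood endothelial-like values without passing the edgeR test (−0.58 ± 0.25, adjusted p = 0.0529). Pericyte-like cells held 0 Dll1 UMIs, which allows up to 21.6 and 16.8 CPM (3 UMIs), and the edgeR test called them lower than fibroblast-like cells (adjusted p = 0.00811). Jag1 had 4.33 and 3.71 CPM in fibroblast-like cells and 9.72 and 21.0 CPM in telocyte-like cells, and was lower in fibroblast-like cells (−1.76 ± 0.40, adjusted p = 0.00068; −0.91 in the first library alone).

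Of the targets, Hes1 was high in both stromal classes, at 906 and 763 CPM in fibroblast-like cells and 692 and 400 CPM in telocyte-like cells (log2 fold 0.80 ± 0.12, edgeR adjusted p = 2.68e-06), whereas the sorted library, described further on, had the opposite order. Its levels in blood endothelial-like cells were 934 and 932 CPM, and in lymphatic endothelial-like cells 1765 and 1868 CPM, so that the blood endothelium, highest in bulk, was the lower of the 2 in single cells (−0.78 ± 0.13, adjusted p = 5.95e-06). Hey1 had 4.22 and 3.83 CPM in fibroblast-like cells, 1.08 and 2.1 CPM in telocyte-like cells, 97.9 and 99.3 CPM in blood endothelial-like cells and 91.9 and 68.6 CPM in lymphatic endothelial-like cells. Both endothelial classes were far above both stromal classes in Hey1.

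Counted over the members, fibroblast-like cells were higher than telocyte-like cells in Notch1 and Hes1 and lower in Jag1 and Dll4, 2 of 10 in each direction, beside 14.9% and 12.4% of all genes tested. The median log2 fold was 0.30 over members and 0.03 over all genes. Against blood endothelial-like cells, fibroblast-like cells were lower in the 7 members already counted and higher in Notch2, beside 26.4% of all genes called higher (medians −4.26 over members and 0.07 over all genes). Blood over lymphatic endothelial-like cells gave 5 of 10 higher (Notch3, Notch4, Jag1, Jag2, Dll1; the Notch3 call was lost with doublets kept, at 1.46 and adjusted p = 0.0641) and 2 lower (Notch2, Hes1), beside 15.1% and 11.0%. Pericyte-like over fibroblast-like cells gave 5 of 10 higher (Notch1, Notch3, Jag1, Dll4, Hey1) and 1 lower (Dll1), beside 8.79% and 9.97%. In the first library pericyte-like cells held 4 UMIs of Dll4 and 2 of Hey1. Of the 30 and 39 pericyte-like cells, 1 in each library held 4 or more endothelial markers, against 2 of 1162 and 3 of 1072 fibroblast-like cells. The part of endothelial RNA in the pericyte-like calls was not tested.

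Expressed as a percentage of the blood endothelial-like level of the same library, the 14 endothelial markers had a median of 0.168% (0.0238% to 5.34%) and 0.196% (0.0990% to 3.97%) in fibroblast-like cells. Notch4 (0.496% and 0.440%), Jag2 (0.805% and 0.944%), Dll4 (0.190% and 0.104%), Jag1 (2.93% and 2.47%) and Hey1 (4.31% and 3.86%) lay inside the range of the markers. The upper end is Tek alone, with Erg next at 1.44% and 1.02%, so that Jag1 and Hey1 lay above 13 of the 14 markers. Notch1 (6.71% and 5.68%), Notch3 (14% and 9.11%), Dll1 (68.6% and 61.7%), Hes1 (97.0% and 81.8%) and Notch2 (1077% and 411%) lay above the range in both libraries. The Notch2 percentages are imprecise. They divide by a blood endothelial-like level at or below that of 3 UMIs, which is 3.50 and 3.31 CPM. The percentages of Notch1, Notch2, Notch3 and Dll1 thus lay above those of the endothelial markers in fibroblast-like single cells and PDGFRAlo bulk libraries alike. Such percentages do not tell a gene's own expression from RNA of other, non-endothelial sources. Notch3 was far higher in pericyte-like cells, as given above. Notch1 in fibroblast-like cells was below its level in near-empty barcodes, as given below. The part of such sources was not tested.

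**Figure D4:**
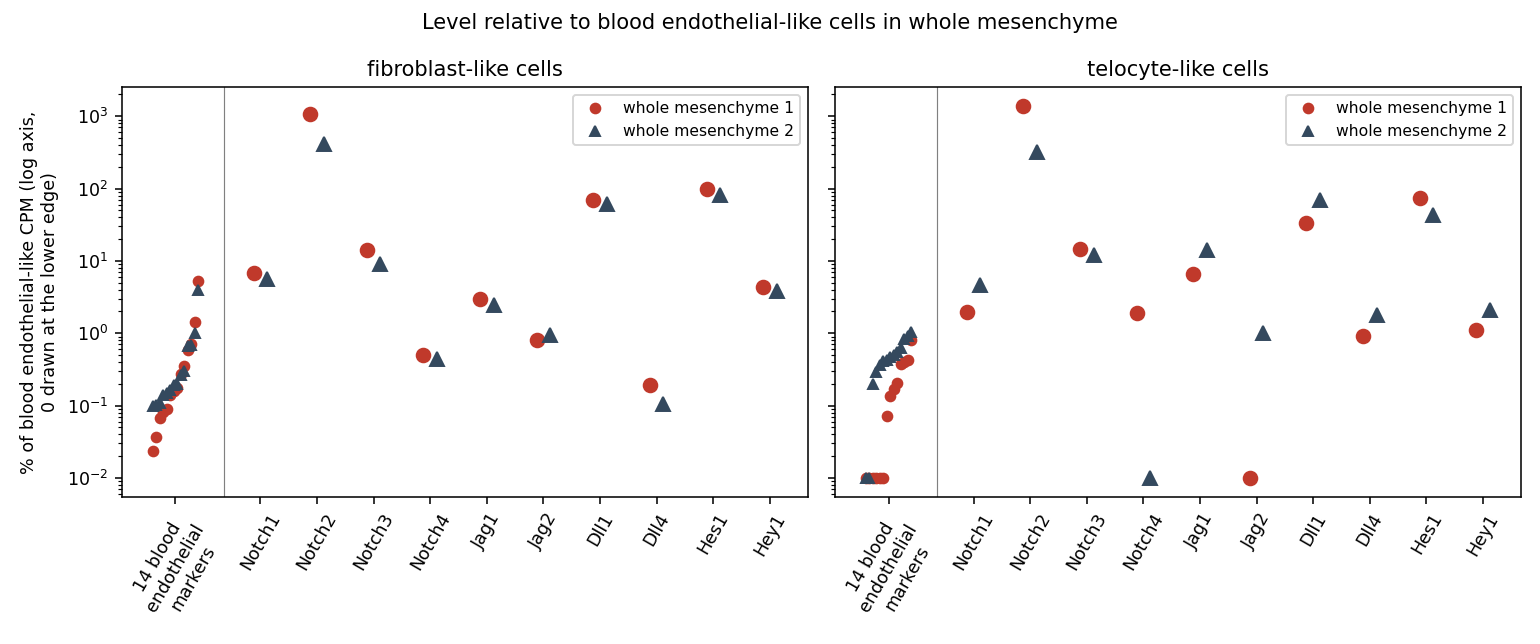
Level of each gene in fibroblast-like and telocyte-like cells as a percentage of its level in blood endothelial-like cells of the same whole-mesenchyme library, on a log axis, for the 10 Notch genes and the 14 endothelial markers, with values of 0 drawn at the lower edge. The markers' medians are 0.168% and 0.196% in fibroblast-like cells, where Dll1 is at 68.6% and 61.7%.

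The members' UMIs were also set beside those of the endothelial markers in the same cells. Notch4 had 1.24 and 1.12 UMIs per 100 endothelial marker UMIs in fibroblast-like cells, 0.936 and 1.00 in blood endothelial-like cells, and 1.04 and 1.07 in near-empty barcodes of 1 to 50 UMIs. Dll4 had 0.993 and 0.559 in fibroblast-like cells, 1.96 and 2.12 in blood endothelial-like cells and 2.60 and 2.44 in near-empty barcodes. The fibroblast-like ratios rest on the 5 and 4 Notch4 UMIs and the 4 and 2 Dll4 UMIs given above, and have no interval. Among the endothelial marker UMIs of fibroblast-like cells, Plvap gave 170 and 148 and Tek 106 and 78, more than any other marker. Tek was at 5.34% and 3.97% of its blood endothelial-like level there, against marker medians of 0.168% and 0.196%. The fibroblast-like ratios, those of Dll1 and Notch1 below included, therefore depend on these genes.

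Dll1 had 44.7 and 46.1 UMIs per 100 endothelial marker UMIs in fibroblast-like cells, 0.244 and 0.295 in blood endothelial-like cells and 2.47 and 3.51 in near-empty barcodes. Notch1 had 49.1 and 40.5 in fibroblast-like cells, 2.74 and 2.81 in blood endothelial-like cells and 11.4 and 14 in near-empty barcodes. For both genes the ratio was highest in fibroblast-like cells of these 3. The Notch1 level itself, 22.0 and 17.9 CPM in fibroblast-like cells, was below that of near-empty barcodes, at 32.9 and 39.8 CPM, and that of Dll1 above it (7.11 and 9.94 CPM in near-empty barcodes). At a common depth of 2000 UMIs per cell, a Notch1 UMI was found in 4.63% and 4.08% of fibroblast-like cells and 1.72% of plasma cell-like cells in each library. Without thinning the shares were 14% and 12.1% of fibroblast-like cells and 15.3% and 16.6% of plasma cell-like cells. Median depths were 7707 and 7560 UMIs in fibroblast-like cells and 22748 and 22494 UMIs in plasma cell-like cells. The order of these classes thus depended on thinning, which takes more UMIs from the deeper cells. What part of the Notch1 UMIs came from RNA outside the cells was not tested.

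The sorted single-cell library is the nearest match to the PDGFRA-sorted bulk libraries, and holds hardly any endothelial cells. Clusters with fibroblast markers made up 62.2% of its cells (2398 cells) and clusters with telocyte markers 30.2% (1163 cells). A cell with 4 or more of the 14 endothelial markers was found once among all 3853 cells, a minimum chosen after the data were seen, whereas 158 of 158 and 162 of 162 blood endothelial-like cells of whole mesenchyme reached it. That cell held 1 UMI of Dll1, 10 of Hes1 and 0 of the other 8 members. In the fibroblast-marker clusters the endothelial markers summed to 28.2 CPM, and Cdh5, Kdr, Emcn, Ptprb, Cldn5 and Flt1 were at 0. A cluster of 258 cells (6.70%) led by Fabp4, Selp and Plvap, genes known from vessels, was kept apart. Its fibroblast markers summed to 25469 CPM and its endothelial markers to 187 CPM. Against whole-mesenchyme clusters, 9 of its 12 fibroblast markers and 0 of its 14 endothelial markers were raised. Plvap was in 10 of its cells, and its UMIs of Pecam1, Cldn5, Ptprb, Esam and Cdh5 each came from 1 cell. Its median depth was 2106 UMIs. The cluster held 1 UMI of Notch4, 0 of Jag2 and Dll4 and 13 of Dll1. This library has no replicate, and its intervals are exact Poisson intervals that cover counting error only.

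Jag2 had 1 UMI in all 2398 fibroblast-marker cells (0.0825 CPM, 95% interval 0.00209 to 0.460), and 0 UMIs in telocyte-marker cells. Dll4 had 5 UMIs in fibroblast-marker cells (0.412 CPM, 0.134 to 0.962) and 2.17 CPM (1.12 to 3.79) in telocyte-marker cells. Notch4 had 12 UMIs in fibroblast-marker cells (0.990 CPM, 0.511 to 1.73) and 2.35 CPM (1.25 to 4.02) in telocyte-marker cells. For these 3 genes, which were higher in PDGFRAlo than in telocyte libraries in bulk, no interval of fibroblast-marker cells lay above that of telocyte-marker cells.

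Dll1 had 157 UMIs in fibroblast-marker cells (12.9 CPM, 11.0 to 15.1) against 2.53 CPM (1.38 to 4.25) in telocyte-marker cells. Hey1 had 165 UMIs in fibroblast-marker cells (13.6 CPM, 11.6 to 15.9) against 1.08 CPM (0.398 to 2.36) in telocyte-marker cells. For both the intervals lay apart, with the fibroblast-marker cells higher. In whole mesenchyme neither Dll1 nor Hey1 passed the test between fibroblast-like and telocyte-like cells. There Dll1 had 20.0 and 20.4 CPM in fibroblast-like cells and 9.72 and 23.1 CPM in telocyte-like cells. Notch1 had 7.51 CPM (6.04 to 9.21) in fibroblast-marker cells and 4.34 CPM (2.78 to 6.45) in telocyte-marker cells, and the intervals overlapped. Jag1 had 2.31 CPM (1.53 to 3.34) in fibroblast-marker cells and 9.94 CPM (7.49 to 12.9) in telocyte-marker cells, so that the telocyte-marker cells were higher, as in whole mesenchyme. Hes1 had 1639 CPM (1616 to 1662) in fibroblast-marker cells and 1764 CPM (1729 to 1799) in telocyte-marker cells, so that it was lower in fibroblast-marker cells here and higher in fibroblast-like cells in whole mesenchyme.

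Per cell, a Dll1 UMI was seen in 5.75% of fibroblast-marker cells (exact binomial 4.86% to 6.76%) and in 1.12% of telocyte-marker cells (0.596% to 1.90%), at median depths of 5244 and 4570 UMIs. Thinned to 2000 UMIs per cell, the shares were 3.24% and 0.360%. Fibroblast-marker cells with an endothelial marker UMI held a Dll1 UMI in 5.80% of 293 cells, and those without one in 5.75% of 2105 cells. The endothelial UMIs that define this split came mainly from Plvap, seen in 164 cells, and Tek, seen in 81. Cdh5, Kdr, Emcn, Ptprb, Cldn5 and Flt1 were at 0, so the split cannot decide on endothelial carry-over. In whole mesenchyme the Dll1 shares of fibroblast-like cells with and without an endothelial marker UMI were 13% (8.89% to 18.1%) and 10.5% (8.65% to 12.7%) in the first library and 17.8% (12.4% to 24.3%) and 9.02% (7.23% to 11.1%) in the second. The Dll1 intervals overlapped in the first library and lay apart in the second, with the higher share in cells that held an endothelial UMI. The Notch1 shares with and without one were 21.1% (15.9% to 27.0%) and 12.4% (10.3% to 14.6%) in the first library. In the second they were 13.8% (9.04% to 19.8%) and 11.8% (9.77% to 14.1%). Here the intervals lay apart in the first library and overlapped in the second. Depth was not matched between cells with and without an endothelial UMI.

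**Figure D5:**
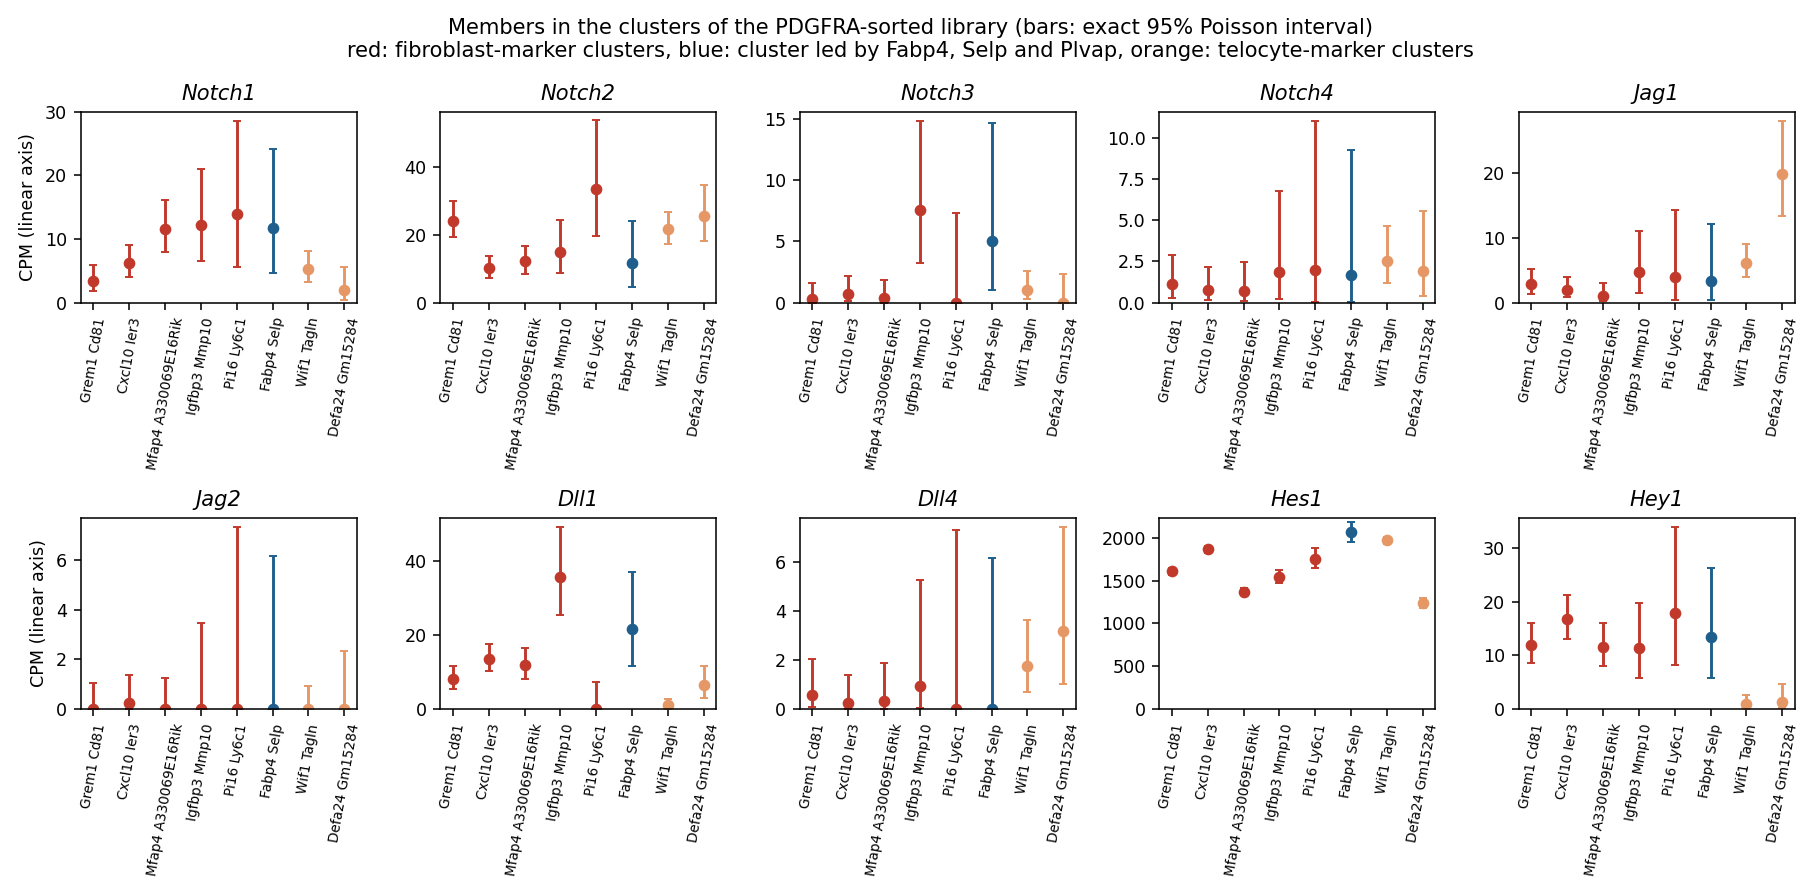
Level of the Notch genes in each cluster of the sorted PDGFRA-GFP single-cell library, as CPM of summed UMIs with exact 95% Poisson intervals, for clusters of 50 or more cells: red for fibroblast markers, blue for the Fabp4-led cluster, orange for telocyte markers. Dll1 is highest in the cluster led by Igfbp3, Mmp10 and Cxcl13, at 35.8 CPM, and Jag1 in the cluster led by Defa24, at 19.7 CPM.

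Within the fibroblasts Dll1 was uneven. In whole mesenchyme it had 44.5 and 41.4 CPM in the fibroblast-like cluster led by Mmp10, Cxcl14 and Igfbp3, 15.3 and 17.8 CPM in that led by Mfap4, Sfrp1 and Mgp, and 6.55 and 6.57 CPM in that led by C3, Grem1 and Fbln1. The order was the same in both libraries, and the 95% intervals of the highest cluster (35.8 to 54.8 and 32.1 to 52.6) lay above those of the others. In the sorted library the cluster led by Igfbp3, Mmp10 and Cxcl13 had 35.8 CPM of Dll1 (25.3 to 49.2), the cluster led by Grem1, Cd81 and Ackr4 had 8.18 CPM (5.48 to 11.8), and the cluster led by Pi16 had 0 UMIs in 97 cells, which allows up to 5.95 CPM. The Igfbp3-led cluster also had most of the Notch3 of these clusters, at 7.54 CPM from 8 UMIs.

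Blood endothelial-like cells were uneven too. The cluster led by Flt1, Ly6c1 and Scgb3a1 (131 and 128 cells) had 307 and 345 CPM of Dll4, against 38.7 and 10.4 CPM in the cluster led by Selp, Tmem252 and Madcam1 (27 and 34 cells), a set known from venules. Notch4 had 152 and 162 CPM in the Flt1-led cluster and 4.30 and 6.94 CPM in the Selp-led cluster. Hey1 had 133 and 141 CPM in the Flt1-led cluster and 4.30 and 10.4 CPM in the Selp-led cluster. Jag1, Jag2 and Notch1 were ordered alike in both libraries, whereas Dll1 was not, at 28.8 and 21.0 CPM in the Flt1-led cluster and 30.1 and 58.9 CPM in the Selp-led cluster.

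Of 41 other genes of the pathway, 38 could be tested in bulk, and 6 were higher and 1 lower in PDGFRAlo than in telocyte libraries (median log2 fold 0.11), beside 12.1% and 2.77% of all genes. Dner, a Delta- and Notch-like transmembrane protein, had 67.3 and 105 CPM in PDGFRAlo libraries against 1.28 and 1.27 CPM in telocyte libraries (6.07 ± 0.57, edgeR adjusted p = 0.000454). Dner was at 0.449 and 0.126 CPM in blood endothelium and at 0 counts in lymphatic endothelium, so that its PDGFRAlo level stood apart from all the other populations. In whole mesenchyme it had 19.8 and 14.2 CPM in fibroblast-like cells against 1.08 and 3.15 CPM in telocyte-like cells (3.13 ± 0.57, adjusted p = 5.58e-05). Mfng, a sugar transferase that modifies Notch receptors, had 9.05 and 5.45 CPM in PDGFRAlo libraries and 0.0713 and 0.182 CPM in telocyte libraries, beside 65.4 and 59.4 CPM in blood endothelium. In single cells Mfng had 0.667 and 0.989 CPM in fibroblast-like cells and 47.8 and 70.6 CPM in blood endothelial-like cells.

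Dtx1, a ubiquitin ligase of the Deltex family, had 9.45 and 24.0 CPM in PDGFRAlo libraries and 0.285 and 0.666 CPM in telocyte libraries (5.10 ± 0.72 by edgeR). It was lower in blood than in lymphatic endothelium, at 2.96 and 6.03 CPM against 65.5 and 125 CPM (−4.41 ± 0.63), and in single cells at 2.33 and 3.31 CPM in blood against 618 and 539 CPM in lymphatic endothelial-like cells. Over the 38 genes, blood endothelium was higher than lymphatic endothelium in 10 and lower in 3 (median 0.78; 14.7% and 8.32% of all genes were), with Dlk2 at 3.59 and 6.79 CPM in blood endothelium against 0.270 and 0 CPM in lymphatic endothelium. PDGFRAlo libraries were higher than blood endothelium in 13 and lower in 5 (median 0.36; 21.2% and 21.3% of all genes were). Dtx4 had 142 and 221 CPM in PDGFRAlo libraries against 10.3 and 9.68 CPM in blood endothelium (4.18 ± 0.44), and Neurl1b, a ubiquitin ligase that acts on ligands, 3.57 and 0.924 CPM against 39.7 and 25.4 CPM (−3.87 ± 0.78).

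In single cells 35 of the 41 genes could be tested. Fibroblast-like cells were higher than telocyte-like cells in 3 and lower in 4 (14.9% and 12.4% of all genes were), and higher than blood endothelial-like cells in 12 and lower in 12 (26.4% and 25.3%). Blood over lymphatic endothelial-like cells gave 6 higher and 7 lower (15.1% and 11.0%), and pericyte-like over fibroblast-like cells 6 higher and 3 lower (8.79% and 9.97%). The genes whose levels over the 11 classes were most like each member's were named by Pearson correlation of log2(CPM + 10), a description over classes that share libraries. They were Gpr146 for Notch1 (r = 0.96) and for Hey1 (0.97), Cnot9 for Notch2 (0.95), Rgs4 for Notch3 (0.99) and Slco2a1 for Notch4 (0.99). For the ligands they were Tinagl1 for Jag1 (0.97), Mctp1 for Jag2 (1.00), Chp2 for Dll1 (0.98) and Egfl7 for Dll4 (0.99), and Jun was nearest to Hes1 (0.96).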

How the data were processed

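The members and the lists of markers and of other pathway genes were chosen with earlier results of these data known. The authors deposited bulk read counts from SMART-Seq v4 libraries as 1 table of whole numbers by gene symbol, and single-cell UMI counts as matrices of genes by barcodes. Per the submitters' processing notes, STAR and Cell Ranger 2.1.1 and 3.0.2 were used on mm10. Which counting program, annotation and strand setting made the bulk counts is not given in the sources used here. Sort text on the GFP cells is repeated in the labels of the whole-mesenchyme libraries.

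Bulk counts were scaled by TMM, filtered with filterByExpr and fitted in 1 model of 4 groups with edgeR 4.0.16 in R 4.3.3 (14893 genes, 4 residual degrees of freedom). RPKM used exon lengths of GENCODE M21. On simulated counts for PDGFRAlo over telocyte, this fit called 94 of 100 genes changed 8-fold, 4 of 100 changed 2-fold and 4 unchanged genes of 14893. Deviations of same-numbered bulk libraries from their group means correlated weakly between groups (−0.103 to 0.195), and no block was used. The highest correlations were between blood and lymphatic endothelium (0.195) and between telocyte and PDGFRAlo libraries (0.098). Whether same-numbered libraries share animals was not given.

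Kept cells had at least 500 genes and less than 10% of UMIs from mitochondrial genes, and predicted doublets were removed: 37 in the sorted library and 84 and 97 in whole mesenchyme. In the first whole-mesenchyme library the automatic threshold marked 6 cells, so the threshold of the second was used, a choice made after seeing the data. Clusters (scanpy 1.11.5, Leiden resolution 1, 15 neighbours, 30 components, 2000 variable genes) left out 51 Notch genes and took an X-like name from 3 or more raised markers, a rule set after the clusters were seen. UMIs were summed per class and library and tested with edgeR with library as a block (11 classes, 10 residual degrees of freedom); on simulated sums for fibroblast-like over telocyte-like cells this called 98 of 100 genes changed 4-fold, 59 of 100 changed 2-fold and 3 unchanged genes of 11927. Neither UMI intervals nor floors cover more than counting error. Named are all 10 members, the 3 pathway genes with the largest called change in each of the first 3 bulk comparisons, and the genes most like each member; Hey2, Nrarp and Hes6 are given in counts only. DESeq2 1.42.0, no filter, other scaling, fits of 2 groups, the block, left-out libraries, other cell filters and other resolutions were tried as alternatives.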

Additional observations from a re-analysis of the deposited data

Results flagged for a closer look

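Hes1 was highest of all named whole-mesenchyme classes in glia-like cells, which enter none of the comparisons above, at 3762 CPM of summed UMIs in the first library (40 cells) and 3292 CPM in the second (28 cells). The fibroblast-like cells had 906 and 763 CPM. It stands out because these cells lie outside the populations the study sorted in bulk.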

How the results depend on the processing

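Of the single-gene tests of members and alternatives, 669 bulk and 299 single-cell results kept direction and side of the threshold; 57 and 5 newly passed, 42 and 1 no longer passed, and 12 and 5 changed sign. Members called higher in PDGFRAlo over telocyte libraries numbered 3 when the 2 groups were fitted alone and 7 with no filter and by the DESeq2 Wald test, through Notch3 and Dll1 (5 as reported). In telocytes over blood endothelium 1 was called higher with no filter, by DESeq2 and with the replicate block, and over lymphatic endothelium 3 with no filter and 1 with the block or the 2 groups alone (0 as reported for both). Whether the replicate numbers pair the bulk libraries was not given. With the block, Hey1 in PDGFRAlo over blood endothelium (−2.15) and Notch2 in PDGFRAlo over lymphatic endothelium (1.54) newly passed. So did Notch2 in telocytes over blood endothelium (1.67) and Jag1 in telocytes over lymphatic endothelium (1.26). The block gave Hey1 −0.071 in PDGFRAlo over lymphatic endothelium. Leaving out each bulk library in turn, where a lone library is assumed to vary like the other groups, gave these ranges. PDGFRAlo over telocyte called 1047 to 2274 genes and 3 to 7 members higher. Blood over lymphatic endothelium called 1168 to 3304 genes and 2 to 8 members higher. PDGFRAlo over blood endothelium called 0 to 1 members higher and 0 to 6 lower; PDGFRAlo over lymphatic endothelium called 3546 to 7174 genes, 2 to 5 members higher and 0 to 1 lower. Telocyte over blood endothelium called 4996 to 7709 genes and 0 to 1 members higher, and over lymphatic endothelium 4775 to 8111 genes and 0 to 3 higher. For 9 single-gene results the sign differed between left-out libraries. They are, in PDGFRAlo over telocyte, Notch2 (−0.25 to 1.74), Jag1 (−0.10 to 1.12) and Hes1 (−2.42 to 0.21); over blood endothelium, Notch3 (−1.65 to 1.79), Dll1 (−0.027 to 1.61) and Dll4 (−2.25 to 0.15); and over lymphatic endothelium, Dll4 (−1.35 to 1.21), Hes1 (−1.53 to 1.05) and Hey1 (−1.69 to 1.07, adjusted p = 0.045 at the low end). The low end came without the first PDGFRAlo library for all of them except Notch2, which had it without the second. In single cells signs changed for Notch1 in blood over lymphatic endothelial-like cells (0.0020) and Hes1 in pericyte-like over fibroblast-like cells (−0.0012) with no filter, Jag2 in pericyte-like over fibroblast-like cells by DESeq2 (0.40, with 0 Jag2 UMIs in pericyte-like cells), and Notch3 in fibroblast-like over telocyte-like cells with doublets kept (−0.031) or at resolution 0.5 (−0.0057). Thinned to 1000 and 2000 UMIs, Notch1 was seen in 0.792% and 2.27% and Dll1 in 1.42% and 3.24% of fibroblast-marker cells. Near-empty barcodes of 51 to 100 UMIs held 341 and 484 CPM of endothelial markers in whole mesenchyme (288 and 284 CPM at 1 to 50 UMIs). All 14 markers were under 20 CPM in sorted fibroblast-marker cells, so the alternative marker list equals the main one. Counting the Fabp4-led cluster as fibroblast, an alternative added after seeing the data, moved no member beyond its interval. The causes of these changes were not tested. Precision is limited by 2 libraries per bulk group, by an unknown number of animals, by the strain that differs between the PDGFRA populations and the endothelia, by the unknown strand setting, by UMI counts under 10 for Notch4, Jag2 and Dll4 in the stromal classes of whole mesenchyme, and by the lack of a replicate of the sorted single-cell library.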

Other observations

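Outside the stroma and the vessels, whole mesenchyme held Notch genes in immune and glial cells. Jag2 had 23.7 and 25.1 CPM in macrophage or dendritic-like cells, which held 57.0% and 55% of all its UMIs, more than the 25.4% and 28.9% in blood endothelial-like cells. Notch1 had 41.7 and 43.0 CPM in T cell or innate lymphoid-like cells and 188 and 107 CPM in glia-like cells. Notch2 had 27.6 and 22.0 CPM in B cell-like cells, from 10 and 7 UMIs. Cells in clusters that took no name held 44.2% and 45.3% of all Hey1 UMIs, at 31.1 and 28.7 CPM, and were 24.1% and 24.3% of the cells; lymphoid genes such as Il22, Il13, Ncr1 and Xcl1 led several of these clusters.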
